A study of Homo sapiens with 12 samples.

Results

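The genes of cholesterol and fatty acid synthesis were followed through RNA sequencing of HepaRG cells, a human hepatoma line used as a model of liver cells. They were chosen by name, 29 gene symbols in all, and were described in 2 sets: 17 sterol genes, and 12 genes that make fatty acids and store them as triglyceride. The expression table held 27 of the 29 among its 15822 loci, all 17 sterol genes and 10 of the fatty acid genes, and all 27 passed the filter on low values with 15792 loci in total. FADS2 and ME1 were not analysed here. There were 6 groups of 2 libraries: wild type (WT) and hCAR-KO cells, the latter lacking the human constitutive androstane receptor per their label, each given the solvent DMSO, phenobarbital (PB) or the CAR agonist CITCO. The knockout is called KO below. The sources used here do not give doses, exposure times, the way the gene was disrupted or whether the KO cells are a single clone. Nothing in the labels says that the 2 libraries of a group came from separate cultures, and the spread that the p-values measure, between the libraries of a group, may be technical.

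Cholesterol is built from acetyl-CoA through mevalonate, the isoprenoid farnesyl diphosphate, squalene and lanosterol, and fatty acids are built from the same acetyl-CoA through malonyl-CoA. Both routes are controlled by membrane-bound transcription factors, the sterol regulatory element binding proteins: the product of SREBF2 acts mainly on sterol genes, and the main liver product of SREBF1 acts mainly on fatty acid genes. When sterols are plentiful, INSIG proteins hold these factors in the endoplasmic reticulum. When sterols run low the factors are cut free, enter the nucleus and switch on their targets, INSIG1 among them. CAR is a nuclear receptor of the liver that controls drug metabolism. CITCO binds it directly, whereas PB activates it indirectly and also acts on the related pregnane X receptor.

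Levels are given as CPM, reads per 1000000 after normalization, and differences as log2 ratios on the log2(CPM + 0.5) scale. A difference was called when its limma p-value, adjusted by the Benjamini-Hochberg method over all loci tested, was under 0.05, and every adjusted p here comes from that test unless another tool is named. CPM was not divided by gene length, so levels of different genes are not compared. Libraries held 49258123 to 66453415 reads, and the lowest count of any of the 27 genes in any library was 1795 reads (MVK). NR1I3, which encodes CAR, stood at 11.5 and 12 CPM in WT and 11 and 10.6 CPM in KO cells under DMSO, so both KO libraries lay below both WT libraries there. Under PB both KO libraries of NR1I3 lay above both WT libraries (16.2 and 15.6 against 14.8 and 15.5 CPM), and under CITCO the genotypes overlapped. The sources used here do not give the position of the edit. CYP2B6, the usual marker of CAR activation, went under CITCO from 35.2 and 37.1 to 435 and 424 CPM in WT cells and from 10.2 and 8.95 to 17.4 and 16.1 CPM in KO cells, and under PB to 442 and 447 and to 229.9 and 226 CPM. Of 6 hepatocyte markers 5 were in the table, all above 0 in every library, and their sum, which was mostly ALB, was 131636 to 148299 CPM in WT and 50825 to 54236 CPM in KO libraries. TTR, another of them, read 419 and 427 CPM in WT and 431 and 431 CPM in KO cells under DMSO. Of 6 biliary markers 4 were in the table, with sums of 377 to 467 and 104 to 121 CPM, mostly KRT19, and none of the 4 was at 0. KRT19 and SOX9 were lower in every KO library than in any WT library, whereas SPP1 (11.5 to 20.9 CPM in WT and 29.2 to 37.1 CPM in KO libraries) and KRT7 (0.357 to 1.09 and 1.51 to 2.27 CPM) were higher.

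The sequences before the start sites are shown first, since SREBPs are known to act with NF-Y, which binds CCAAT, and with Sp1, which binds GC boxes. In the 250 bases upstream of the RefSeq start sites (GRCh38.p14), CCAAT was present on either strand in 14 of the 15 sterol genes with a promoter entry (93.3%), against 41.6% of 9951 tested genes and 4 of 8 fatty acid genes (50%). CYP51A1 was the sterol gene without it. A gene with several start sites was counted if any of its windows held the motif. The GC box GGGCGG was found in 14 of 15 sterol genes, 8 of 8 fatty acid genes and 71.3% of tested genes. The E-box CACGTG was found in 2 of 15, 0 of 8 and 10.9%. One form of the sterol regulatory element, TCACCCCAC, was found in SREBF2 alone, against 0.432% of tested genes. These are matches of letters on both strands and not measured binding, and other forms of the element were not searched. FDFT1, SQLE, DGAT2 and FASN had no entry. The windows of 5 genes follow, each printed in the direction of its gene and ending at the base before the start site, with CCAAT (or ATTGG, the same box on the other strand) and TCACCCCAC in capitals. INSIG1 (chr7:155297628-155297877, plus strand), LSS (chr21:46228775-46229024, minus strand) and MSMO1 (chr4:165327419-165327668, plus strand) are shown because they were among the sterol genes with the largest PB to CITCO difference in WT cells, MSMO1 with 4 CCAAT boxes. SREBF2 (chr22:41832855-41833104, plus strand) is shown for its sterol element 133 bases upstream. SCD (chr10:100346983-100347232, plus strand), with 2 boxes, is the fatty acid gene that was called lower with both agents in both genotypes.
INSIG1: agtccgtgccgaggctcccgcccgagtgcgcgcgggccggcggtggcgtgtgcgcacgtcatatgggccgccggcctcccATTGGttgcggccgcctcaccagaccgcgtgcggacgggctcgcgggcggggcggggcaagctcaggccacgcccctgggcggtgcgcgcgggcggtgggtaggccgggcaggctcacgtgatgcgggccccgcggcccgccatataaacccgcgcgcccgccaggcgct
LSS: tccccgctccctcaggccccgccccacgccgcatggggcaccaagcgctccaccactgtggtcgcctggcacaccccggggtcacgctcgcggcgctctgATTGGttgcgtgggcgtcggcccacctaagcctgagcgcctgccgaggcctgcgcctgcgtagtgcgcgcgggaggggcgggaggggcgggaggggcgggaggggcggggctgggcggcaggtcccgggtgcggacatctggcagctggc
MSMO1: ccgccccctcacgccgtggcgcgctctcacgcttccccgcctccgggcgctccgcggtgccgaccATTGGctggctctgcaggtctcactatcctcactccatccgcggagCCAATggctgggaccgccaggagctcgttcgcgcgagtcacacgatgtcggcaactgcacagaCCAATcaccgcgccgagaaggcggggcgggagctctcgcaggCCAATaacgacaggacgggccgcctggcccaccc
SREBF2: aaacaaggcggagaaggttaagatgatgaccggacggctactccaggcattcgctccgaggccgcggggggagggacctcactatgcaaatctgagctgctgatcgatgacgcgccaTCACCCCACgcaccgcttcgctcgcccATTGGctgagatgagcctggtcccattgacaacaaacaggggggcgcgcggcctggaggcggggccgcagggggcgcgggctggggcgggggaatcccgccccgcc
SCD: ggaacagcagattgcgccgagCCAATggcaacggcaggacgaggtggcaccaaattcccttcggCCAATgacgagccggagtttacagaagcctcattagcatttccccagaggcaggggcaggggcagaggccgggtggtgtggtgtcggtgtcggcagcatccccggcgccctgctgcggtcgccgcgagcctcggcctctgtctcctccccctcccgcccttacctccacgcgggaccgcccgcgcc

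In WT cells the sterol genes stood higher under PB than under CITCO. Of the 17, 10 were called higher and 0 lower, at a background of 2.65% of all loci called higher and 3.63% lower. The median difference of the 17 was 0.18 on the log2 scale, against -0.0026 over all loci, and 16 of the 17 lay above 0. Of the 10 fatty acid genes 2 were called higher and 0 lower, with a median of 0.01. In these bulk libraries, fewer cells of a type and less RNA of a gene per cell cannot be told apart.

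INSIG1, the sterol sensor that retains the SREBPs, stood at 296 and 283 CPM under PB and 235 and 238 CPM under CITCO, with 279.6 and 281 CPM under DMSO. The CITCO libraries were the low ones and the groups did not overlap. The PB to CITCO difference was 0.29 (SE 0.0417, a 1.22-fold difference, adjusted p = 0.000269). LSS, which closes squalene epoxide into lanosterol, read 237 and 263 CPM under PB and 209 and 203 CPM under CITCO (difference 0.27, SE 0.0504, adjusted p = 0.00243). HMGCS1, which makes HMG-CoA at the head of the mevalonate route, read 380.1 and 353 CPM and 315 and 299.5 CPM (difference 0.25, SE 0.0456, adjusted p = 0.00197). In both genes every PB library was above every CITCO library. MSMO1, which removes methyl groups from sterol intermediates, read 385 and 355 CPM under PB and 309 and 312 CPM under CITCO (difference 0.25, SE 0.0511, adjusted p = 0.0061). Under DMSO MSMO1 read 373 and 331 CPM, a spread between duplicates that reached into the range of the PB libraries. The other called sterol genes spanned the route: IDI1 (0.18), which interconverts the isoprenoid building blocks, FDPS (0.13), which joins them to farnesyl diphosphate, SQLE (0.18), which oxidises squalene, CYP51A1 (0.25), which demethylates lanosterol, SC5D (0.23), a desaturase of the last steps, and DHCR7 (0.18), the reductase of the last step. Their adjusted p ranged from 0.00243 to 0.034. The 7 uncalled sterol genes ranged from -0.07 (SREBF2 itself) to 0.18 (NSDHL, a sterol demethylation enzyme).

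Counted by library instead, 14 of the 17 sterol genes had both PB libraries above both CITCO libraries, against 23.8% of all loci, and 1, SREBF2, had both below, against 23.9%. The 17 genes summed to 3544 and 3480.1 CPM under PB, 3072 and 3067 CPM under CITCO and 3351 and 3266 CPM under DMSO. The 10 sterol calls fell to 5 without the first WT PB library, 8 without the second, 4 without the first WT CITCO library and 2 without the second, and to 6 when the fit held only the WT PB and WT CITCO libraries. Over all loci calls also fell in these runs, to 437 in the last of them, but rose without the second WT PB library. INSIG1 and ACSS2 were the 2 of the 12 called genes that passed under every alternative run. Scaling each library to its total gave 6 higher and 0 lower sterol genes, and 2 higher and 1 lower fatty acid genes, while the calls over all loci went from 419 higher and 573 lower to 250 and 949. Hepatocyte markers summed to 141864 to 148299 CPM under PB and 131636 to 131672 CPM under CITCO, and 4 proliferation genes to 131 to 138 and 179.9 to 183 CPM. The hepatocyte sums were mostly ALB. TTR and HNF4A were also higher under PB, whereas APOA1 and SERPINA1 overlapped between the agents. Biliary markers summed to 377 to 418 and 463 to 467 CPM, mostly KRT19, while SOX9 (12.1 and 11.5 against 10.5 and 10.6 CPM) and SPP1 (20.9 and 19.3 against 17.9 and 18.3 CPM) were higher under PB. Their part in the sterol difference was not tested.

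**Figure D1:**
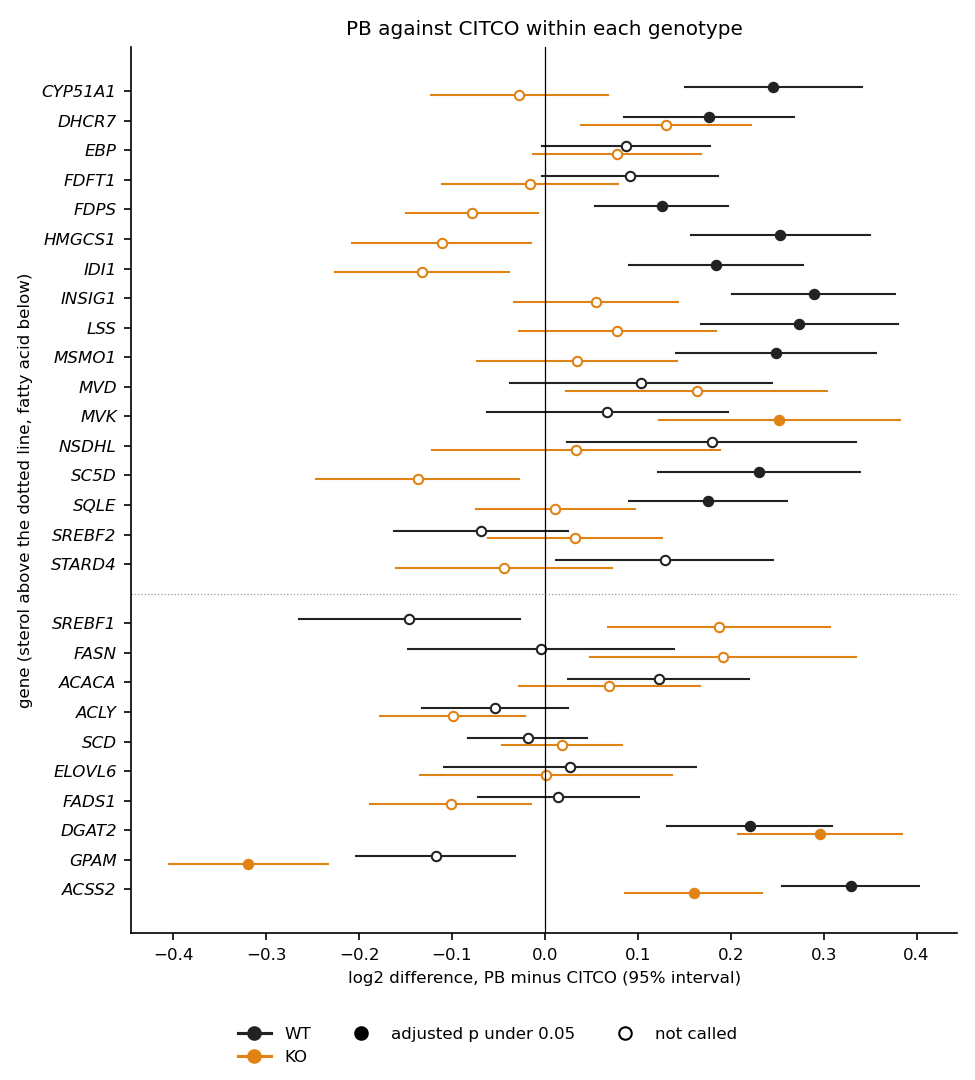
Log2 difference between PB and CITCO (x axis) for each of the 27 genes (y axis, sterol genes above the dotted line), in WT (black) and KO cells (orange). Points are limma estimates from 2 libraries a group, bars are 95% intervals and filled points passed an adjusted p of 0.05. In WT cells 10 sterol points are filled and all lie right of 0, and in KO cells MVK is the only filled sterol point.

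In KO cells the same comparison gave 1 sterol gene called higher and 0 lower, at a background of 3.57% higher and 1.91% lower, and the median of the 17 was 0.03. The called gene was MVK, the kinase that phosphorylates mevalonate, at 80.9 and 78.7 CPM under PB and 67.4 and 66.4 CPM under CITCO (difference 0.25, SE 0.0617, adjusted p = 0.0194). INSIG1 read 349 and 360.0 CPM under PB and 339 and 343 CPM under CITCO in KO cells (difference 0.05, adjusted p = 0.583). By library, 6 sterol genes had both KO PB libraries above both KO CITCO libraries, against 25.7% of all loci, and 4 had both below (FDPS, HMGCS1, IDI1 and SC5D), against 25.5%. The MVK call was lost on leaving out any 1 of the 4 libraries compared, with total scaling and with a constant prior variance. With total scaling 0 sterol genes were higher and 4 lower, and the calls over all loci went from 563 higher and 302 lower to 388 and 596.

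The difference of these differences, KO minus WT, was tested directly, in a comparison added after the values were seen. It was called below 0 in 5 sterol genes, at a background of 0.393% of loci, and above 0 in none, with a median of -0.17 against 0.0076 over all loci. SC5D read 244 and 221 CPM under PB and 199.6 and 196 CPM under CITCO in WT cells, against 95.8 and 96.3 and 105 and 106 CPM in KO cells. PB was the higher agent in WT cells and the lower in KO cells, and the PB to CITCO difference changed by -0.37 (SE 0.0731, adjusted p = 0.0144). HMGCS1 read 175 and 183 CPM under PB and 194 and 193 CPM under CITCO in KO cells, the reverse order of its WT libraries (change -0.36, SE 0.0645, adjusted p = 0.00528). IDI1 read 221 and 205 CPM and 189 and 185 CPM in WT cells, and 128 and 132 CPM and 140.2 and 145 CPM in KO cells (change -0.32, adjusted p = 0.0144). CYP51A1 read 319.7 and 295 CPM and 259 and 259 CPM in WT cells, and 249 and 247 CPM and 244 and 262 CPM in KO cells (change -0.27, adjusted p = 0.041). For CYP51A1 the KO groups overlapped, whereas the WT groups did not. FDPS changed by -0.20 (adjusted p = 0.041), and INSIG1 missed the threshold (-0.23, adjusted p = 0.0585). None of these 5 calls passed under every alternative. Without the second WT CITCO library, or the first KO PB library, 0 of the 27 genes were called, and the HMGCS1 adjusted p was then 0.0611 and 0.0627.

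**Figure D2:**
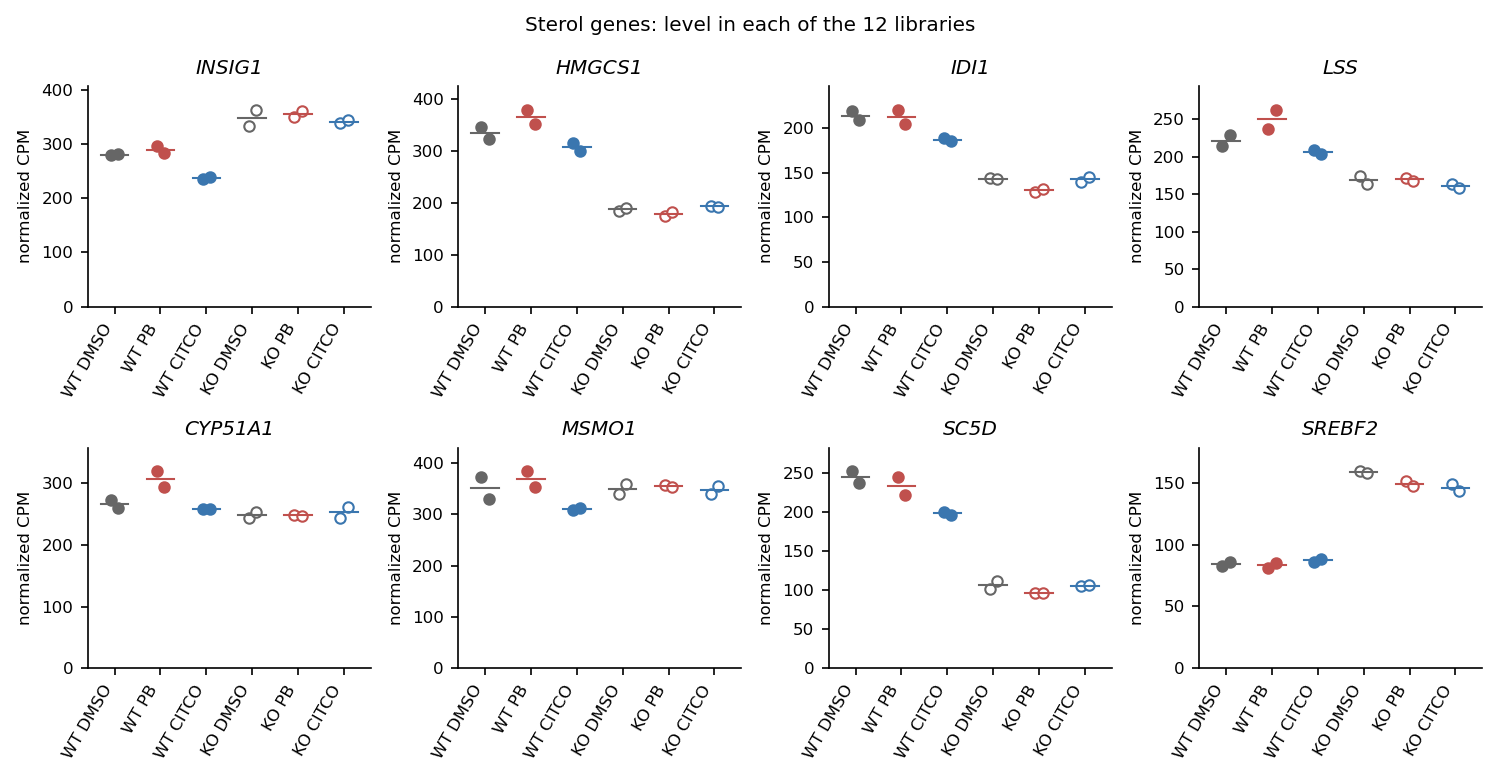
Level of 8 sterol genes in normalized CPM (y axis, from 0) in each of the 12 libraries, filled points for WT and open points for KO, with the mean of each group as a line. INSIG1 and SC5D are lowest among WT groups under CITCO, HMGCS1, IDI1 and SC5D sit lower in every KO library than in any WT library, and SREBF2 and INSIG1 sit higher.

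Against DMSO, PB raised a few sterol genes in WT cells. Called higher were 3 of 17 and lower 0, at a background of 2.66% higher and 3.76% lower, and the median was 0.11 against -0.005 over all loci, with 13 genes above 0. CYP51A1 rose from 273 and 259.9 to 319.7 and 295 CPM (0.20, SE 0.0453, adjusted p = 0.00915). DHCR7 rose from 265 and 264 to 288 and 309.8 CPM (0.18, SE 0.0434, adjusted p = 0.0184). LSS rose from 214 and 228 to 237 and 263 CPM (0.17, SE 0.0504, adjusted p = 0.048). In all 3 genes both PB libraries were above both DMSO libraries. These genes were picked by calls on the same libraries, and the share of all loci so separated was not counted. NSDHL had the largest estimate of the 17, 0.24, and was not called (53.5 and 51.8 CPM under DMSO, 63.5 and 61.2 CPM under PB, adjusted p = 0.0612). INSIG1 (0.05) and SREBF2 (-0.02) were not called either. The CYP51A1 call was lost without the second DMSO library (adjusted p = 0.062) or the first PB library (0.0963), the DHCR7 call without either DMSO library or the second PB library, and the LSS call without the first DMSO or the second PB library. In a fit of only the WT PB and WT DMSO libraries all 3 sterol calls were lost. The LSS call was also lost with total scaling, a pseudocount of 0.1, a replicate block (adjusted p = 0.0558), edgeR (0.125) and DESeq2 (0.0724), and the DHCR7 call with edgeR (0.0507). With a constant prior variance, that is limma without a trend of variance on level, the members' calls against DMSO were lost in both genotypes, except SCD and GPAM with PB in WT cells and GPAM with PB in KO cells.

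CITCO lowered 3 of the 17 sterol genes in WT cells and raised 0, at a background of 1.02% of loci lower and 1.18% higher. The median was -0.05 against -0.0073 over all loci, and 12 genes lay below 0. SC5D fell from 252 and 237 to 199.6 and 196 CPM (-0.30, SE 0.0517, adjusted p = 0.00279). INSIG1 fell by 0.24 from the DMSO values given above (SE 0.0417, adjusted p = 0.00296). IDI1 fell from 219 and 209 to 189 and 185 CPM (-0.19, SE 0.0445, adjusted p = 0.0268). In all 3 genes both CITCO libraries were below both DMSO libraries. Here too the genes were picked by calls on the same libraries, and the share of all loci so separated was not counted. SREBF2 stood at 82.8 and 85.6 CPM under DMSO, 81.2 and 85.3 CPM under PB and 86.1 and 88.4 CPM under CITCO, with neither agent called. The SC5D call was lost without the second CITCO library (adjusted p = 0.0564), the INSIG1 call without the first (0.0658), and the IDI1 call without either of them or the first DMSO library. IDI1 was also lost with total scaling, when the fit held the WT CITCO and WT DMSO libraries alone, with edgeR (0.133) and with DESeq2 (0.0705). Total scaling left 2 sterol genes lower, and turned the calls over all loci from 187 higher and 161 lower to 250 and 100. Proliferation genes summed to 141 to 147 CPM under DMSO and 179.9 to 183 CPM under CITCO, and hepatocyte markers to 143958 to 148293 and 131636 to 131672 CPM. The hepatocyte sums were mostly ALB (129931 and 125205 against 113477 and 113538 CPM). SERPINA1 was also lower under CITCO, whereas TTR, APOA1 and HNF4A overlapped between DMSO and CITCO. The part of these markers was not tested.

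**Figure D3:**
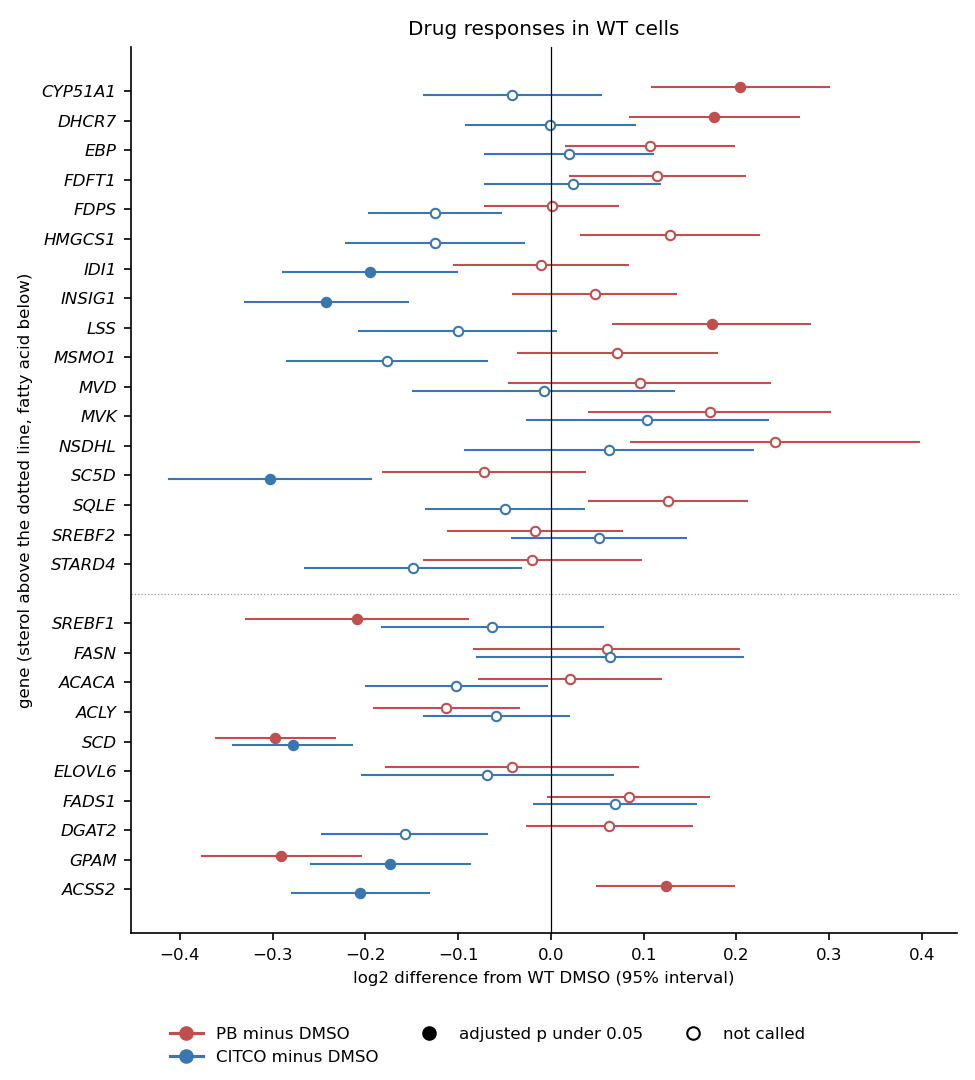
Log2 difference from WT DMSO (x axis) under PB (red) and CITCO (blue) for each of the 27 genes (y axis, sterol genes above the dotted line). Points are limma estimates from 2 libraries a group, bars are 95% intervals and filled points passed an adjusted p of 0.05. SCD and GPAM are filled and left of 0 for both agents, while ACSS2 is filled right of 0 for PB and left of 0 for CITCO.

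Among the fatty acid genes, SCD, the desaturase that puts the first double bond into saturated fatty acids, was called lower with both agents in both genotypes. It stood at 3222 and 3134 CPM in WT DMSO, 2635 and 2538 CPM in WT PB and 2610 and 2630 CPM in WT CITCO libraries. In KO cells it stood at 2460 and 2536 CPM under DMSO, 2186 and 2186 CPM under PB and 2145 and 2173 CPM under CITCO. Every treated library of SCD was below every DMSO library of its genotype. The same held for ACLY, which was called with PB in KO cells alone. Under CITCO ACLY read 201 and 200 CPM in WT cells (-0.06, adjusted p = 0.451) and 285 and 281 CPM in KO cells (-0.11, adjusted p = 0.225), and its other values are given below. SCD fell by 0.30 with PB (SE 0.0306, adjusted p = 3.42e-06) and 0.28 with CITCO (adjusted p = 2.56e-05) in WT cells. In KO cells it fell by 0.19 with PB (adjusted p = 0.000421) and 0.21 with CITCO (adjusted p = 0.00142). The PB response of SCD differed between genotypes by 0.10 (95% interval 0.01 to 0.20, adjusted p = 0.428) and the CITCO response by 0.07 (-0.02 to 0.16, adjusted p = 0.525), neither called. The 2 responses within a genotype share their DMSO libraries.

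GPAM, which begins glycerolipid synthesis by acylating glycerol phosphate, was lower with PB in both genotypes. It stood at 697 and 649 CPM under DMSO and 568 and 532 CPM under PB in WT cells (-0.29, SE 0.0406, adjusted p = 0.000125). In KO cells it stood at 282 and 276 CPM and 224 and 228 CPM (-0.31, SE 0.0406, adjusted p = 6.19e-05). The groups did not overlap, and the PB calls of GPAM in both genotypes passed under every alternative run, as did that of SCD in WT cells. With CITCO it read 598 and 595 CPM in WT cells (-0.17, adjusted p = 0.0313, and 0.319 without the first DMSO library, 0.145 with edgeR and 0.104 with DESeq2) and 279 and 285 CPM in KO cells (0.01, adjusted p = 0.955). The CITCO response of GPAM differed between genotypes by 0.19 (95% interval 0.07 to 0.31, adjusted p = 0.206), which was not called. In KO cells GPAM differed between PB and CITCO by -0.32 (adjusted p = 4.36e-05).

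ACSS2, which makes acetyl-CoA from acetate, moved in opposite directions with the agents in WT cells. It stood at 302 and 298 CPM under DMSO, 324 and 329.8 CPM under PB and 263 and 258 CPM under CITCO. The 3 groups did not overlap, with PB highest and CITCO lowest. The rise with PB was 0.12 (SE 0.035, adjusted p = 0.0418), and its call was lost in 10 of 14 alternatives. Among these were leaving out any 1 of the 4 libraries compared, total scaling (0.0792), a replicate block (0.0546), edgeR (0.116) and DESeq2 (0.102). ACSS2 fell by 0.21 with CITCO (adjusted p = 0.00276, and 0.0651 without the second CITCO library). The PB to CITCO difference was 0.33 (SE 0.035, adjusted p = 1.57e-05). In KO cells it read 229 and 226 CPM, 226 and 228 CPM and 204 and 201 CPM in the same order, with CITCO -0.17 from DMSO (adjusted p = 0.0302) and PB -0.01 from DMSO (adjusted p = 0.956). DGAT2, which completes triglyceride, was also higher under PB than under CITCO in both genotypes. It read 315 and 323 CPM and 273 and 274 CPM in WT cells (0.22, adjusted p = 0.00324). In KO cells it read 88.6 and 91.4 CPM and 75 and 71.5 CPM (0.30, adjusted p = 0.000159). In KO cells 2 fatty acid genes were called higher under PB than under CITCO, DGAT2 and ACSS2, and 1 lower, GPAM. The background was 3.57% of loci higher and 1.91% lower. This ACSS2 call (0.16, adjusted p = 0.00877) was lost on leaving out any 1 of the 4 libraries and with total scaling (0.0623). That scaling gave 1 fatty acid gene higher and 3 lower. The WT call of DGAT2 was lost without the first WT CITCO library (adjusted p = 0.0514).

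SREBF1 stood at 113 and 128 CPM under DMSO, 98.9 and 110.1 CPM under PB and 114 and 117 CPM under CITCO in WT cells, and at 124 and 123, 119 and 118 and 105 and 103 CPM in KO cells. Its lowest WT group was PB and its lowest KO group was CITCO. The calls were PB in WT (-0.21, SE 0.0567, adjusted p = 0.0329) and CITCO in KO cells (-0.25, SE 0.0567, adjusted p = 0.0476). The PB to CITCO difference of SREBF1, KO minus WT, was 0.33 (adjusted p = 0.046). It was the single fatty acid gene called there, at a background of 0.994% of loci called above 0. The WT PB call was lost without the second DMSO library (adjusted p = 0.251) or the first PB library (0.242), with edgeR (0.158) and with DESeq2 (0.113). The KO CITCO call and the genotype difference were lost on leaving out nearly any library: all 4 of the first, and 7 of 8 of the second, which kept its call without the second WT PB library. In all, PB gave 1 fatty acid gene higher and 3 lower in WT cells (median -0.01), at a background of 2.66% higher and 3.76% lower. CITCO gave 0 higher and 3 lower (median -0.09), at a background of 1.18% and 1.02%. FASN, which makes palmitate, was not called with either agent, and its WT DMSO libraries read 966 and 1144 CPM. ACACA (malonyl-CoA synthesis), ELOVL6 (elongation) and FADS1 (polyunsaturated fatty acids) were likewise uncalled in all 4 comparisons of an agent with DMSO.

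**Figure D4:**
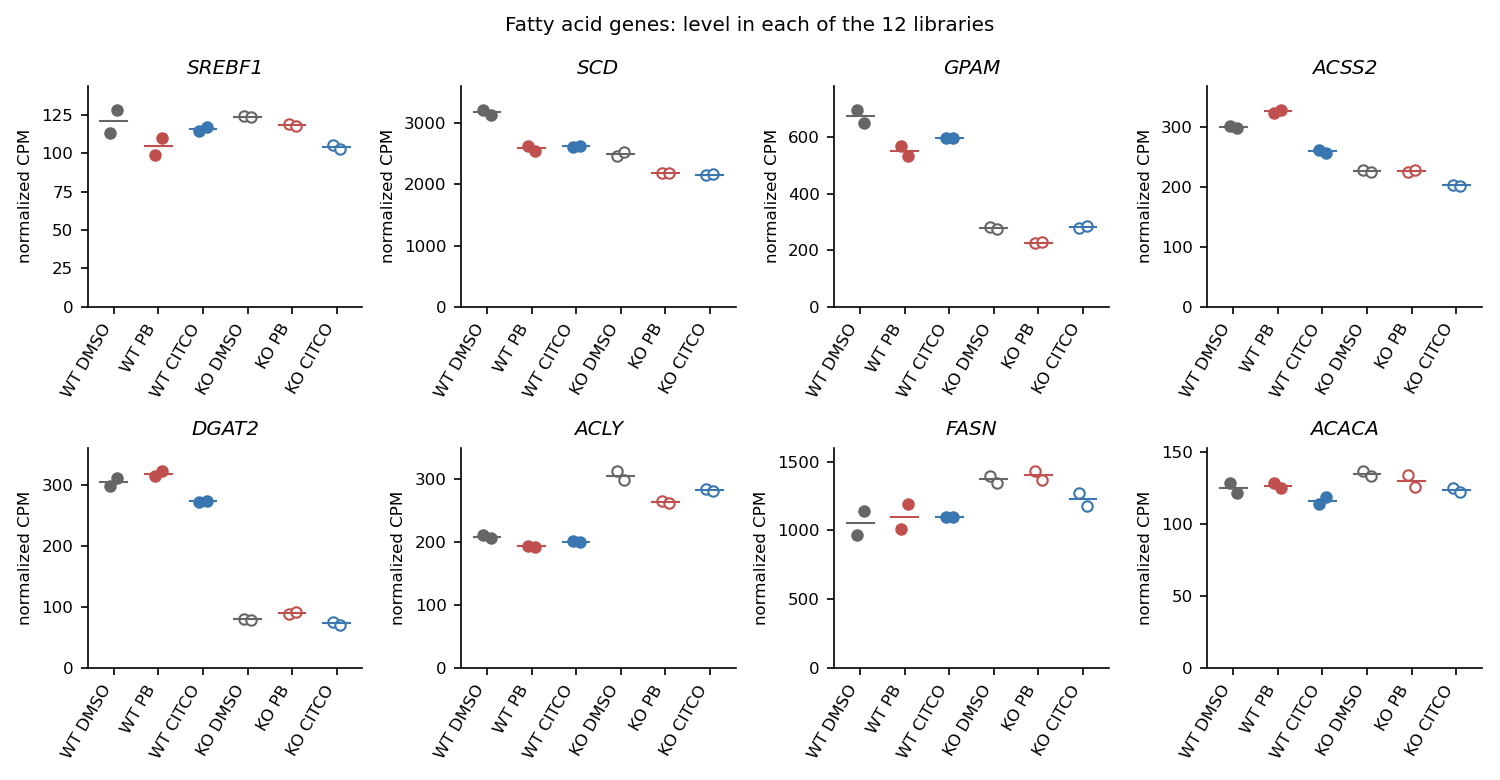
Level of 8 fatty acid genes in normalized CPM (y axis, from 0) in each of the 12 libraries, filled points for WT and open points for KO, with the mean of each group as a line. SCD and ACLY are highest under DMSO in each genotype, and DGAT2 and GPAM are lower in every KO library than in any WT library.

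In KO cells, PB gave 0 sterol genes higher and 1 lower, at a background of 3.87% higher and 3.09% lower, with a median of 0.02. The gene was FDPS, from 326 and 323 to 297 and 295 CPM (-0.13, SE 0.0338, adjusted p = 0.0211), a call lost on leaving out any 1 of the 4 libraries. In WT cells FDPS read 389 and 392 CPM under DMSO and 389 and 392 CPM under PB. Of the fatty acid genes PB lowered 3 in KO cells, GPAM, SCD and ACLY, and raised 1, DGAT2. ACLY, which splits citrate into acetyl-CoA, fell from 313 and 299 to 265 and 263 CPM (-0.21, SE 0.0371, adjusted p = 0.00109). In WT cells it read 212 and 206 CPM and 194 and 193 CPM (-0.11, adjusted p = 0.0867). DGAT2 rose from 81.2 and 78.5 to 88.6 and 91.4 CPM (0.17, adjusted p = 0.0161), a call lost without the second KO DMSO library or either KO PB library. With total scaling the PB calls in KO cells were 0 sterol genes higher and 3 lower, and 1 fatty acid gene higher and 4 lower, while those over all loci went from 611 higher and 488 lower to 480 and 708.

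CITCO called 0 of the 17 sterol genes in KO cells (limma), at a background of 0.386% of loci higher and 0.424% lower. At an unadjusted p under 0.05 (limma) there were 2 of the 17, against 1743 of the 15792 loci. INSIG1 read 333 and 363 CPM under DMSO and 339 and 343 CPM under CITCO (-0.03), and SC5D 101 and 111 and 105 and 106 CPM (-0.01). Of the fatty acid genes 0 rose and 3 fell: SREBF1, SCD and ACSS2, with a median of -0.13 over the 10. The ACSS2 and SREBF1 calls were each lost on leaving out any 1 of the 4 libraries compared, and the SCD call was kept without any 1 of them. Over all loci the split was 61 higher and 67 lower, and 85 and 55 with total scaling. The tests of the genotype difference in single responses called 0 of the 27 genes for PB and 0 for CITCO (limma). The background of called loci was 1.01% and 0.336%. At an unadjusted p under 0.05 (limma) there were 9 and 10 of the 27 genes, against 1522 and 1996 of the 15792 loci. The largest estimates were -0.27 for PB (NSDHL, adjusted p = 0.376) and 0.30 for CITCO (SC5D, adjusted p = 0.11). For INSIG1 the CITCO response differed by 0.22 (95% interval 0.09 to 0.34, adjusted p = 0.156), and the PB response by -0.02 (-0.14 to 0.11). Without the second WT DMSO library some of the 27 genes were called for the CITCO response, and calls over all loci rose in the same run. Without the first, a fatty acid gene was called for the PB response, and calls over all loci did not rise.

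Between the genotypes the differences were larger. Under DMSO 4 sterol genes were called higher in KO cells and 9 lower, and 3 fatty acid genes higher and 5 lower, at a background of 28.3% of loci higher and 29.4% lower. Under PB the counts were 3 and 10, and 3 and 6 (background 29.4% and 28.9%). Under CITCO they were 6 and 9, and 1 and 7 (background 29.3% and 29.8%). In either direction 57.7% of all loci were called under DMSO, 58.3% under PB and 59% under CITCO, so a count of calls says little about these genes as a set, and their sizes are given below. The sterol medians were -0.13, -0.31 and -0.20, and the fatty acid medians -0.21, -0.25 and -0.21. These values hold for the deposited scaling. With libraries scaled to their totals the all-loci median of KO minus WT shifted to 0.25, 0.24 and 0.23, and the calls were 9 sterol genes higher and 5 lower under DMSO, 7 and 7 under PB, and 8 and 5 under CITCO. The fatty acid genes then split 5 and 4, 4 and 3, and 3 and 3, and all loci 8308 higher and 2311 lower, 8167 and 2389, and 8109 and 2512.

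SC5D was the sterol gene with the largest difference, at 252 and 237 CPM in WT and 101 and 111 CPM in KO cells under DMSO (-1.20, SE 0.0517, 2.3-fold, adjusted p = 8.61e-13), and -1.27 under PB and -0.90 under CITCO. HMGCS1 read 347 and 324 CPM in WT and 185 and 191 CPM in KO cells under DMSO (-0.84, SE 0.0456), with -1.03 under PB and -0.67 under CITCO. FDFT1, which joins farnesyl units into squalene, read 164 and 159.6 and 96.6 and 91.8 CPM (-0.78, -0.84 and -0.73 under the 3 treatments). Every KO library was below every WT library in these genes and in IDI1 (-0.57, -0.70 and -0.39). In the opposite direction, SREBF2 read 82.8 and 85.6 CPM in WT and 159 and 158 CPM in KO cells under DMSO (0.91, SE 0.0445, 1.88-fold, adjusted p = 5.22e-12), with 0.84 under PB and 0.74 under CITCO. MVK read 40 and 43.8 and 71.1 and 67.1 CPM (0.72, 0.75 and 0.57). INSIG1 was higher in KO cells under all 3 treatments (0.31, 0.29 and 0.53). So the sterol genes split, with the regulators SREBF2 and INSIG1 and the kinase MVK higher in every KO library than in any WT library, and enzymes before and after MVK lower. These 7 genes kept direction and call under every alternative in all 3 comparisons. DHCR7, called at -0.13 under DMSO, was 0.13 higher with total scaling, and FDPS, MVD and NSDHL lost their calls under DMSO with that scaling. The middle of the range held MVD, which decarboxylates mevalonate diphosphate (-0.33 under DMSO), LSS (-0.39), FDPS (-0.27), NSDHL (-0.23) and SQLE (0.12), while CYP51A1 (-0.10), EBP, a sterol isomerase (-0.09), MSMO1 (-0.01) and STARD4, which carries cholesterol between membranes (0.06), were not called under DMSO.

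Of the fatty acid genes, the 2 that start and finish triglyceride assembly differed most between genotypes. DGAT2 read 299 and 311 CPM in WT and 81.2 and 78.5 CPM in KO cells under DMSO (-1.93, SE 0.0421, 3.8-fold lower, adjusted p = 6.83e-17), and the difference was -1.82 under PB and -1.89 under CITCO. GPAM differed by -1.27, -1.28 and -1.08. ACSS2 differed by -0.40, -0.53 and -0.36. ACLY was higher in KO cells, by 0.55, 0.45 and 0.49. FASN read 966 and 1144 CPM in WT and 1398 and 1344 CPM in KO cells under DMSO (0.38, SE 0.068, adjusted p = 0.000102), was called under PB (0.35) and was not called under CITCO (0.16, adjusted p = 0.0565). SCD differed by -0.35, -0.24 and -0.28 with the deposited scaling, and by 0.01 under PB with total scaling. SREBF1 was not called under DMSO (0.04) and had opposite signs under PB (0.18) and CITCO (-0.15), both calls lost on leaving out single libraries. With total scaling SREBF1 was higher in KO cells under DMSO (0.30, adjusted p = 0.000209), and its values were 0.43 under PB and 0.10 under CITCO, so the opposite signs held for the deposited scaling only. ACACA differed by 0.11 under DMSO and ELOVL6 by -0.33, the first call lost without the second WT DMSO or either KO DMSO library and the second with total scaling. FADS1 was not called under DMSO (-0.09) and was called lower in KO cells under PB (-0.30) and CITCO (-0.18), both calls lost with total scaling. Beside these genotype differences, proliferation genes summed to 131 to 183 CPM in WT and 362 to 461 CPM in KO libraries. The hepatocyte and biliary sums were those given above. The 3 mesenchymal markers in the table (of 6) summed to 56.1 to 69.9 and 96.3 to 108 CPM, mostly ACTA2 (42.7 to 48 and 72.9 to 79 CPM). COL1A1 overlapped between genotypes under PB and CITCO, and POSTN overlapped under DMSO and was higher in KO cells under PB and CITCO. The part of these markers in the differences was not tested.

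**Figure D5:**
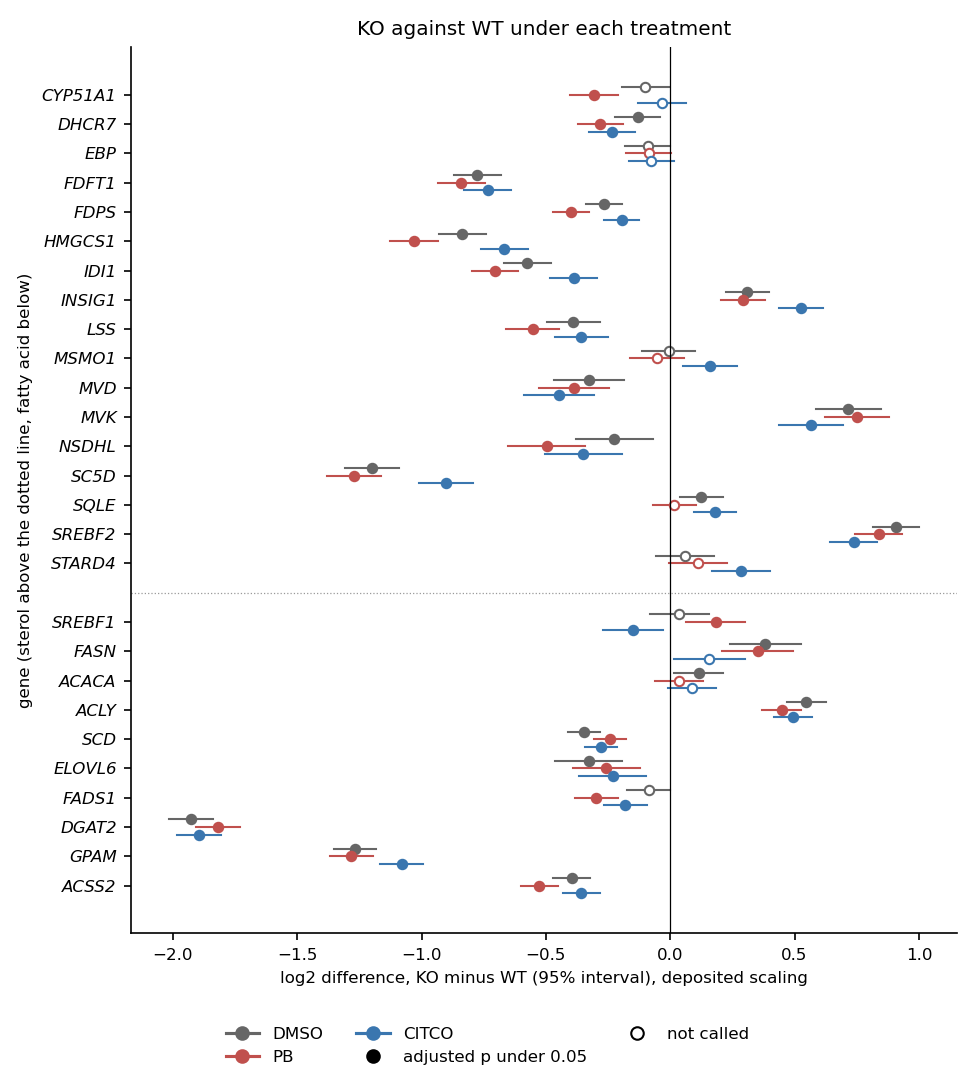
Log2 difference between KO and WT (x axis, deposited scaling) for each of the 27 genes (y axis, sterol genes above the dotted line) under DMSO (grey), PB (red) and CITCO (blue). Points are limma estimates from 2 libraries a group, bars are 95% intervals and filled points passed an adjusted p of 0.05. DGAT2, GPAM, SC5D and HMGCS1 lie farthest left and SREBF2 and MVK farthest right. Total scaling would move the DMSO points right (DHCR7 from -0.13 to 0.13).

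Other genes of the 2 routes were taken from a list, of which 12 sterol and 21 fatty acid genes were tested. The counts of the 12 sterol genes called with the agents are not reported here. Of the alternatives, total scaling alone was run for these genes, after their values were seen. Of the 21 fatty acid genes PB gave 1 higher and 1 lower in WT cells, at a background of 2.66% higher and 3.76% lower, and 3 higher and 0 lower in KO cells, at 3.87% and 3.09%. CITCO gave 1 higher and 1 lower in WT cells (background 1.18% and 1.02%). In KO cells CITCO gave 0 calls (limma), with 4 of the 21 at an unadjusted p under 0.05, against 1743 of the 15792 loci. Between PB and CITCO, 2 were called higher under PB and 0 lower in WT cells (background 2.65% and 3.63%). In KO cells 5 were called higher and 0 lower (background 3.57% and 1.91%), and 3 and 0 with total scaling. ACAT2, which joins acetyl-CoA units at the head of the route, rose with PB in WT cells (0.18, adjusted p = 0.0338), from 124 and 117 to 139 and 134 CPM, with 111 and 119 CPM under CITCO. In KO cells it read 99.6 and 99.9 CPM under PB and 102 and 105 CPM under CITCO, and its PB to CITCO difference changed between genotypes by -0.30 (adjusted p = 0.042).

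On the fatty acid side, ACSL5, which activates fatty acids with coenzyme A, rose with PB by 0.26 in WT cells (adjusted p = 7.32e-05) and by 0.17 in KO cells (adjusted p = 0.00506). THRSP, a lipogenic gene of the liver, rose with PB in KO cells from 6.22 and 5.61 to 11.1 and 12.3 CPM (0.93, SE 0.108, adjusted p = 1.28e-05). In WT cells it read 8.36 and 9.9 CPM under DMSO and 10.7 and 11.5 CPM under PB (0.27, adjusted p = 0.162). The PB response of THRSP was larger in KO cells by 0.65 (SE 0.152, adjusted p = 0.0475). THRSP was the 1 gene of the 21 called in that test, at a background of 1.01% of loci. With total scaling 0 of the 21 were called higher and 0 lower there. Between genotypes under DMSO, 3 further sterol genes were called higher and 4 lower, and 4 further fatty acid genes higher and 14 lower, with a median of -0.32 over the 21, at a background of 28.3% higher and 29.4% lower. With total scaling the further sterol genes split 8 higher and 0 lower and the further fatty acid genes 6 and 9, with a median of -0.05 over the 21, so these splits rest on the deposited scaling. DGAT1, the other enzyme that completes triglyceride, read 156 and 175 CPM in WT and 63.6 and 63.6 CPM in KO cells (-1.37, adjusted p = 1.12e-11). SLC25A1, which exports citrate from mitochondria, read 130.4 and 155 and 69.5 and 74.6 CPM (-0.98, adjusted p = 1.12e-09). ACSL3, another fatty acid activating enzyme, differed by 0.60 and INSIG2, the other INSIG gene, by 0.78 (20 and 18 CPM in WT and 34.2 and 31.5 CPM in KO cells), both higher in KO cells.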

How the data were processed

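Total RNA from 12 HepaRG samples was made into Illumina sequencing libraries, per the labels' protocols. The tools edgeR 2.12, Cufflinks 2.1.1, Cuffdiff 2.1.1, Bowtie 1.0.0 and TopHat2 2.0.10, and both GRCh38 and GRCh37, are named without roles per the submitters' processing notes. The sources used here give neither RNA selection nor strandedness, so reads of overlapping or antisense genes cannot be told apart.

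The authors deposited 1 table of normalized signal, named CPM (counts per 1000000 reads), for 15822 loci with gene symbols. Library totals were 1071810 to 1113721 CPM in WT and 900290 to 935052 CPM in KO libraries, so the deposited values carry normalization factors and are not plain CPM, which had been assumed in choosing the test. In every library 100% of values were whole multiples of the value of 1 read, within 0.001 reads. The authors' deposited comparison tables (log2 fold changes, p-values) were not used.

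The 15792 loci that reached 1 CPM in 2 or more libraries were tested with limma 3.58.1 (R 4.3.3) on log2(CPM + 0.5) with a variance trend, 12 libraries and 6 group means in 1 fit (6 residual degrees of freedom), in 12 comparisons, 1 of them added after the values were seen. Intervals are 95% intervals of that fit. Duplicates differed beyond sampling noise (mean chi-square per locus 4.15 to 10.4 at 20 or more reads). The main fit did not pair libraries by replicate number. Over 15 pairs of groups the correlation of duplicate differences was -0.078 to 0.288. It was above 0.1 in 4 pairs: WT DMSO with WT PB (0.288) and with KO DMSO (0.226), and KO DMSO with KO PB (0.18) and with KO CITCO (0.113). Whether libraries of equal number share a batch was not tested. Alternatives were other pseudocounts, filters and scaling, a constant prior variance, a fit of only the libraries compared, a replicate block, leaving out each library, and edgeR 4.0.16 and DESeq2 1.42.0 on the recovered reads of the 6 WT libraries. The count models were limited to WT because a separate check of the values accepted those columns alone, although whole reads were recovered in all 12 libraries.

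The members, lists and comparisons were chosen with earlier results of these data known. Named with values in every library were SREBF1, SREBF2, INSIG1 and up to 4 sterol and 4 fatty acid genes with the largest called change per comparison, and up to 3 called further genes per direction. Further values were chosen after they were seen. Some called sterol genes of the further list are not reported here. Promoters were matched by symbol to RefSeq (GRCh38.p14), with 15 of 17 sterol and 8 of 10 fatty acid genes found.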

Additional observations from a re-analysis of the deposited data

Results flagged for a closer look

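The PB to CITCO difference of 6 genes differed between KO and WT cells by a direct test of that difference (limma, adjusted p under 0.05), in a comparison added after the values were seen. Relative to WT, the difference in KO cells changed in 5 sterol genes: SC5D by -0.37 (adjusted p = 0.0144), HMGCS1 by -0.36 (adjusted p = 0.00528), IDI1 by -0.32 (adjusted p = 0.0144), CYP51A1 by -0.27 (adjusted p = 0.041) and FDPS by -0.20 (adjusted p = 0.041). SREBF1 lay higher, by 0.33 (adjusted p = 0.046). The background was 0.393% of loci called below 0 and 0.994% above. In HMGCS1, IDI1, SC5D and FDPS both libraries of PB were above both of CITCO in WT cells and below both in KO cells, and in SREBF1 both were below in WT cells and above in KO cells. The genes were picked by calls on these libraries, and the share of all loci reversed in this way was not counted. No sign of the 6 differences changed under any alternative run. Of 16 alternatives, the call was lost in 3 for HMGCS1, 6 for IDI1, 8 for CYP51A1, 8 for SC5D, 10 for FDPS and 10 for SREBF1.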

How the results depend on the processing

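Leaving out 1 library moved the number of the 27 genes called from 7 to 4 to 5 for PB in WT cells, from 6 to 2 to 8 for CITCO in WT cells, from 5 to 3 to 4 for PB in KO cells, from 3 to 1 for CITCO in KO cells, from 12 to 4 to 11 for PB against CITCO in WT cells, from 4 to 2 in KO cells, and from 6 to 0 to 7 for the change of that difference between genotypes. The tests of genotype differences in single responses went from 0 to between 0 and 1 (PB) and between 0 and 4 (CITCO). The KO against WT counts stayed at 17 to 22 of 21, 22 and 23.

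With a constant prior variance the calls fell to 2 (PB in WT), 0 (CITCO in WT), 1 (PB in KO), 0 (CITCO in KO), 2 (PB against CITCO in WT), 2 (in KO) and 0 (change between genotypes). A fit of only the libraries compared gave 2, 3 and 8 calls for PB in WT, CITCO in WT and PB in KO cells, and 13 for PB against CITCO in KO cells. Total scaling gave 8 calls for PB in KO cells and 8 for PB against CITCO there. On recovered reads edgeR called 4, 4 and 8 genes for PB, CITCO and PB against CITCO in WT cells and DESeq2 5, 4 and 11, and over all loci 554, 137 and 500 (edgeR) and 669, 206 and 632 (DESeq2) against 1014, 348 and 992. Calls over all loci also fell with a constant prior variance, and they too moved when 1 library was left out. The causes were not tested.

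With total scaling 6, 3 and 7 of the 27 genotype differences changed sign under DMSO, PB and CITCO. Among them 8 had been called with the deposited scaling: DHCR7 (0.13, called) and NSDHL (0.038) under DMSO, SCD (0.0093) under PB, and DHCR7 (0.017), FDPS (0.057), SREBF1 (0.10), ELOVL6 (0.018) and FADS1 (0.071) under CITCO. Over 162 pairs of a comparison and an alternative, the 27 genes kept 1152 calls (DHCR7 under DMSO with the other sign), lost 230 and gained 67. A replicate block gave 6 calls for PB in WT cells and 4 for the change between genotypes, and left the other counts as they were. Lower depths than the 49258123 reads or more per library were not tried.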
